A study of Mus musculus with 18 samples.

Results

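The genes described here encode the voltage-gated sodium, calcium and potassium channels, the other potassium channels, the HCN channels and the subunits that assemble with them. The rule that selects them goes by gene symbol and takes every gene on the array whose symbol starts with Scn, Cacna, Cacnb, Cacng, Cacna2d, Kcn or Hcn followed by a member number. Of 30869 gene symbols on the array 133 matched, and Cacna1s and Cacng1 were left out by the same rule, which leaves 131 channel genes measured by 256 probes. For the 71 genes with several probes, the probe with the highest mean signal over all arrays stands for the gene. The RNA came from ESD3 cells, a mouse embryonic stem (ES) cell line of 129s2/SvPas origin, that carried a viral shRNA vector under puromycin selection. The shRNA was directed to luciferase in the control cells and to HPRT, the purine salvage enzyme whose deficiency causes Lesch-Nyhan disease, in the knockdown cells. Both lines were sampled as undifferentiated ES cells, as spherical neural masses (SNM, neural precursor aggregates) and after directed dopaminergic differentiation of the SNM with Shh, FGF8 and ascorbic acid (the neuronal stage, reached on day 14). Each of these 6 conditions was hybridised to 3 arrays, but the RNA of replicate cultures had been pooled beforehand, so the spread between the 3 arrays, and every SD, SE and p-value given here, covers the measurement on the array and not the difference between cultures or between shRNA lines.

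Ion channels of these families set the resting potential of a neuron, start and end its action potentials, and let in the calcium that triggers transmitter release. Pore-forming subunits conduct the ion, and accessory subunits alter how many channels reach the membrane and how they open and close. Dopaminergic neurons are known for slow spontaneous firing, in which calcium, HCN and A-type potassium channels take part, and glia, muscle and dividing precursors also express members of these families.

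The 18 arrays detected between 18827 and 22202 of 45281 probes at a detection p under 0.05, and arrays of one condition correlated at 0.992 to 0.997 over the detected probes. Levels are log2 of the background-corrected and quantile-normalized probe intensity, and can be compared between conditions for one probe but not between probes. The targeted gene was lower in each knockdown condition: Hprt1 averaged 12.04 in control and 7.95 in knockdown ES cells, 11.20 and 9.44 in SNM, and 11.05 and 6.60 in neuronal-stage cells, which is 17, 3.39 and 21.8-fold lower. A list of 5 pluripotency genes averaged 12.15 to 12.33 over the arrays of both ES conditions and 7.15 to 9.71 over those of the other conditions. Of 12 neuronal markers on the array, 10 were detected on all 3 control and 9 on all 3 knockdown neuronal-stage arrays. Among these markers, Stmn2 and Ina were detected at the neuronal stage, whereas Snap25 and Nefl, which mark mature neurons, were detected on none of the 18 arrays.

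Most of the channel genes were not detected. A gene counted as detected in a condition when its probe passed on all 3 arrays, and 59 of the 131 did so in at least 1 condition, 13 of them in all 6, while 37 were detected on no array at all. The number detected was 18 in control and 16 in knockdown ES cells, 40 and 45 in SNM, and 49 and 50 in neuronal-stage cells. Over all probes the corresponding shares ran only from 38.6% to 44.4%. Detection was most complete for the beta subunits. All 4 calcium channel beta subunits and 3 of 4 sodium channel beta subunits were detected, against 2 of 10 sodium channel pores, 3 of 9 calcium channel pores and 13 of 40 voltage-gated potassium channel subunits. The remaining classes had 2 of 3 alpha2delta subunits, 4 of 7 gamma subunits, 8 of 15 potassium channel accessory subunits, 5 of 8 calcium- or sodium-activated potassium channels, 7 of 14 inward rectifiers, 6 of 13 2-pore-domain channels and 2 of 4 HCN channels.

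**Figure D1:**
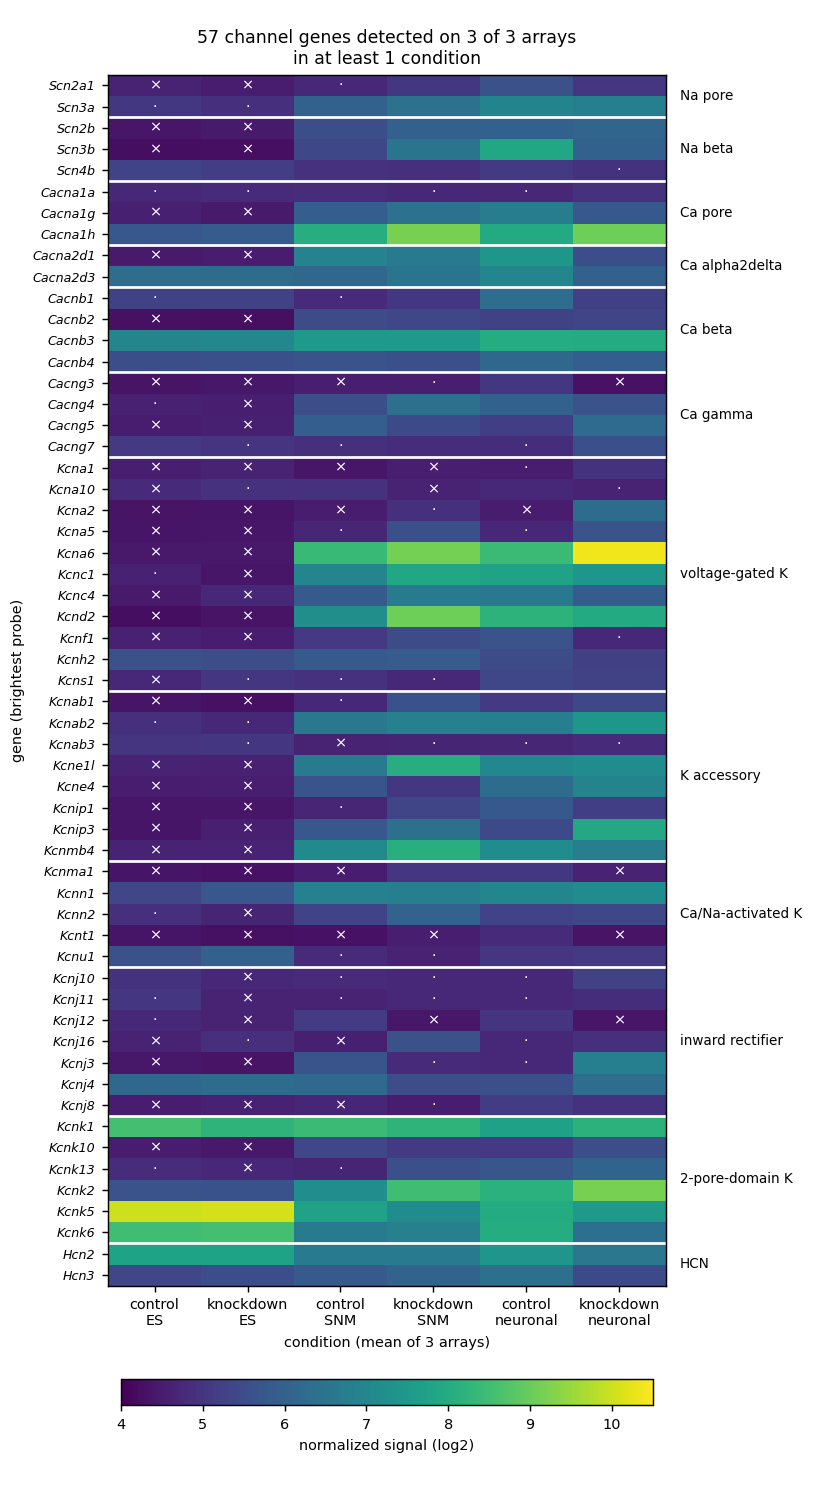
Mean log2 level over 3 arrays of 57 of the 59 channel genes detected in at least 1 condition, in rows grouped by class, against the 6 conditions in columns. A cross marks a condition in which no array detected the probe and a dot one in which 1 or 2 of 3 arrays did, so the crosses crowd the ES columns, where 18 (control) and 16 (knockdown) of the genes were detected on every array. Colours compare conditions within a row.

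Several well-known neuronal channels were among those not detected in any condition. Scn9a, Cacna1c (the cardiac and neuronal L-type pore) and Hcn4 were detected on 0 of 18 arrays. Scn1a, the sodium channel mutated in Dravet syndrome, was detected on 4 arrays with levels of 4.29 to 5.15, Cacna1d, the L-type pore associated with dopaminergic pacemaking, on 3, Scn8a on 3, the N-type pore Cacna1b on 1, the R-type pore Cacna1e on 8 with levels of 4.43 to 5.13, Kcnq3 on 5, and the dopaminergic inward rectifier Kcnj6 on 2. A probe that was not detected gives only an upper bound for its transcript.

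The proximal promoters of 5 genes that recur below are shown because they are the stretches from which these transcripts start, and because they range from no matched motif to 6. They are the 250 bases before the RefSeq transcription start on GRCm38.p6, written 5' to 3' on the gene's strand, in lower case with the GC box GGGCGG and the E-box CAGCTG in capitals where either strand holds the letters.
Kcna6, chr6:126740675-126740924 (minus strand): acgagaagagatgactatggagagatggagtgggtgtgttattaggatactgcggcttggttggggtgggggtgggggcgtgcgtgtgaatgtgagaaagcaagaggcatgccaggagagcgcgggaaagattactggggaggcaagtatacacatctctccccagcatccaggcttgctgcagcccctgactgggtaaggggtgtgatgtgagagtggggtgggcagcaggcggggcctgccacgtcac
Kcna2, chr3:107101317-107101566 (plus strand): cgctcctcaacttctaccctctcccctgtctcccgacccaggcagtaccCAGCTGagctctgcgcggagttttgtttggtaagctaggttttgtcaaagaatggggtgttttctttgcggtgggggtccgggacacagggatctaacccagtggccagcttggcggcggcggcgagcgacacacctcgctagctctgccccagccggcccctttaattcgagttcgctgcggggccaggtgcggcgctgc
Kcnj3, chr2:55435720-55435969 (plus strand): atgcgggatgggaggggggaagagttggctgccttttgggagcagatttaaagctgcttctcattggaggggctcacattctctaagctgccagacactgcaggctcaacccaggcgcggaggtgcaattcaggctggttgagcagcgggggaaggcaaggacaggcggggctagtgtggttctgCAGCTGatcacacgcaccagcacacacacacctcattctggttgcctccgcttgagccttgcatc
Kcnd2, chr6:21215096-21215345 (plus strand): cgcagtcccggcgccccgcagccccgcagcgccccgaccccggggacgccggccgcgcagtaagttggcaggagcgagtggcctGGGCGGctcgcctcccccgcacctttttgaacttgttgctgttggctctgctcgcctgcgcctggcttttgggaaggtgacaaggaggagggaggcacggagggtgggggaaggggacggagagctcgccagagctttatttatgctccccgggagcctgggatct
Cacna2d1, chr5:15934441-15934690 (plus strand): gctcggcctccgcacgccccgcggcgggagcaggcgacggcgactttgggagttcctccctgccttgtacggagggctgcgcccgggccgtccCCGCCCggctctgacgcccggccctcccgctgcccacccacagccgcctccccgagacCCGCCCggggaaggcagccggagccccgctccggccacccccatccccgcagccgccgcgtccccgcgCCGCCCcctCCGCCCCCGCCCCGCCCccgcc
The Kcna6 window holds neither motif, those of Kcna2 and Kcnj3 hold 1 CAGCTG each, that of Kcnd2 holds 1 GGGCGG, and that of Cacna2d1 holds 6 on the reverse strand, the last of which overlap by 1 base. A window was given for 95 of the 131 channel genes and for 27025 genes in all, and the following shares count a gene once if any of its windows holds the letters on either strand. GGGCGG was found in 56 of the 95 channel genes (58.9%) against 35.4% of all genes, and CAGCTG in 25 (26.3%) against 14.7%. CAGATG, another E-box, was found in 14 (14.7%) against 16.3%, and TATAAA in 4 (4.21%) against 14.3%. TTCAGCACC, the left part of the RE1 element to which the repressor REST binds, was in 1 (1.05%) against 0.348%. The number of CpG dinucleotides in the window of a gene that held most of them had a median of 12 over channel genes and 6 over all genes. A gene with more windows has more chances to hold a motif or many CpG, and the number of windows per gene was not compared between channel genes and all genes. These are matches of letters and not measured binding.

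In undifferentiated ES cells no channel gene differed between knockdown and control by the threshold used throughout, an adjusted p from limma under 0.05 together with at least 1.5-fold. Of 19 channel genes tested 0 were called, 4 had an unadjusted p under 0.05, and 1.68% of all probes tested were called. The smallest adjusted p among the members, 0.00216, belonged to Kcnk1, a 2-pore-domain channel, whose log2 difference of -0.34 was under the fold threshold. The median log2 difference was 0.03 over the channel genes and 0.01 over all probes tested.

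From ES cells to SNM the channel genes called as higher outnumbered those called as lower in both lines, but most of those higher had been detected on no ES array. Kcna6, a Shaker-type potassium channel, Kcnd2, the pore of the neuronal A-type current, Kcnmb4, the neuronal beta subunit of the large-conductance calcium-activated channel, and Kcnc1, a pore of fast-spiking neurons, led the rises. Kcna6 was detected on no ES array, with levels of 4.36, 4.57 and 4.42 in control and 4.43, 4.58 and 4.35 in knockdown cells. In SNM it stood at 8.47, 8.43 and 8.35 in control and 9.25, 9.24 and 8.94 in knockdown cells, so that it was at least 11.7-fold higher in control SNM and at least 18.5-fold higher in knockdown SNM than in the respective ES cells, the brighter condition being set against the faintest signal that still counted as detected. Kcnd2 was likewise detected on no ES array and was at least 5.07-fold higher in control and at least 17.6-fold higher in knockdown SNM. Kcnmb4 was at least 4.71-fold and at least 8.91-fold higher. In control cells 24 of 44 tested channel genes were higher and 4 lower in SNM, against 23.7% and 25.4% of all probes tested. In knockdown cells 30 of 46 were higher and 5 lower, against 26.4% and 30.9%. The median log2 difference of the channel genes was 0.87 in control and 1.02 in knockdown cells, and that of all probes tested was -0.08 and -0.11. Of the genes counted as higher, 16 in control and 23 in knockdown cells were tested only because SNM passed detection while no ES array did, so they could be called only as rises. Under every normalization tried 10 genes were called higher in control and 19 in knockdown SNM, and 3 and 4 were called lower.

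All 4 channel genes that fell from ES cells to SNM in control cells, Kcnk5, Kcnk6, Hcn2 and Kcnu1, also fell in knockdown cells, whose arrays are separate. Kcnk5, an acid-sensitive 2-pore-domain channel, was at 9.91, 10.04 and 10.06 in control ES cells and at 7.94, 7.74 and 7.52 in control SNM. In knockdown cells it was at 10.11, 10.11 and 10.02, then at 7.17, 7.21 and 7.07. The ES and SNM arrays of Kcnk5 were thus far apart, with log2 changes of -2.27 in control and -2.93 in knockdown cells. Kcnk6, of the same family, changed by -1.85 and -1.71, Hcn2, a pacemaker channel of brain and heart, by -1.11 and -1.07, and Kcnu1, the sperm potassium channel, by -0.84 and -1.38. Kcnj4 was called lower only in the knockdown cells, with -0.75.

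At the SNM stage 7 of 10 tested voltage-gated potassium channel subunits and 5 of 7 tested accessory subunits were called higher in knockdown than in control cells, 1 accessory subunit and 3 inward rectifiers were called lower, and Kcnd2, Kcne1l, Kcnk2, Cacna1h and Scn3b were among the larger differences. At the neuronal stage the picture was mixed, with the sodium channel subunit Scn3b, the potassium channel Kcnk6, the calcium channel subunit Cacna2d1 and both detected HCN channels lower in the knockdown cells, and Kcnip3, Kcnj3, Kcna6 and Kcna2 higher. At SNM 19 of 49 tested channel genes were higher and 4 lower, against 11% and 8.9% of all probes tested, with a median log2 difference of 0.33 against -0.04. Detected on all 3 arrays were 40 channel genes in control and 45 in knockdown SNM, and 42.1% and 44.4% of all probes. More channel genes thus entered this test through the knockdown arrays alone than through the control arrays alone, which favoured calls as higher. After neuronal differentiation 12 of 58 were higher and 15 lower, against 13.9% and 13.5%, with a median of -0.10 against 0.01. The share called was 46.9% of the members at SNM and 46.6% at the neuronal stage. Channel genes were represented here by their brightest probe. Taking all genes the same way, 12% were higher and 8.77% lower at SNM, and 14.3% and 14.4% at the neuronal stage. As the RNA was taken from whole cultures, fewer cells of a type and less RNA per cell cannot be told apart in any of these differences.

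The normalization bore on these counts. Without background correction, which compresses differences of faint probes, 8 (quantile) or 7 (75th percentile) channel genes were called higher at SNM and 0 lower, and at the neuronal stage 6 and 6 (quantile) or 7 and 9 (75th percentile). Called under every normalization tried were 7 genes at SNM, all higher: Cacna1h, Kcnc1, Kcnd2, Kcne1l, Kcnk2, Kcnmb4 and Scn3b. At the neuronal stage 6 were called higher under every normalization tried, namely Cacna1h, Kcna2, Kcna6, Kcnip3, Kcnj3 and Kcnk2, and 6 lower, among them Cacna2d1, Cacna2d3, Kcnk6 and Scn3b. Kcna2 and Kcnj3 entered that test through the knockdown arrays alone, which favoured a call as higher.

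**Figure D2:**
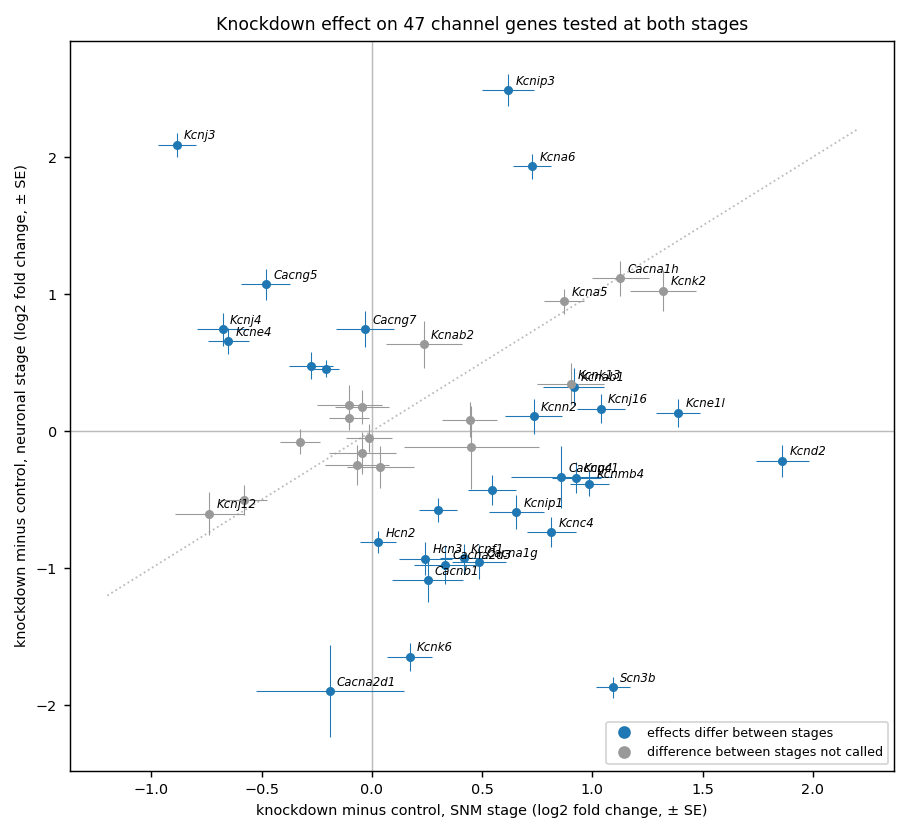
Log2 difference, knockdown minus control, at the SNM stage (horizontal axis) and at the neuronal stage (vertical axis) for 47 of the 49 channel genes tested at both, with bars of 1 SE over 3 arrays per condition. Blue points mark the 30 genes whose difference between the stages was called, and Kcnj3 (-0.89 and 2.09) and Scn3b (1.09 and -1.87) lie on opposite sides of both zero lines.

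The change from SNM to the neuronal stage was tested in each line and between the lines. In control cells 18 of 51 tested channel genes were higher at the neuronal stage and 4 lower, against 14.3% and 15.1% of all probes tested, with a median log2 change of 0.46 against -0.07. In knockdown cells 10 of 54 were higher and 13 lower, against 13.8% and 14.8%, with a median of 0.08 against -0.02. Without background correction these counts were 9 higher and 1 lower in control cells, and 6 and 5 (quantile) or 5 and 5 (75th percentile) in knockdown cells. In control cells 40 channel genes were detected in SNM and 49 at the neuronal stage, and in knockdown cells 45 and 50. More genes thus entered these tests through the neuronal-stage arrays alone than through the SNM arrays alone, which favoured calls as rises, most of all in control cells. Among the larger rises in control cells were those of Scn3b (2.48) and Cacnb1 (1.51), neither of which was called higher in the knockdown cells. In knockdown cells the largest rises were those of Kcnj3 (2.01), Kcne4 (1.89) and Kcnip3 (1.52), and among the larger falls were those of Kcnmb4 (-1.31) and Cacna2d1 (-1.13). The test of the difference itself, knockdown against control in the SNM to neuronal change, called 35 of 58 channel genes, 10 with a more positive and 25 with a more negative change in knockdown cells, against 13.7% and 14.8% of all probes tested and a median of -0.30 against 0.06. For the ES to SNM change, it called 19 of 52 as more positive in knockdown cells and 5 as more negative, against 11.7% and 9.61%, with a median of 0.36 against -0.05, and without background correction 8 and 0 (quantile) or 11 and 1 (75th percentile). The tests of stage changes and of their differences share the SNM arrays with the tests of knockdown against control, so they restate those values in part.

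Taken by name, 36 channel genes were called at SNM or at the neuronal stage, comparisons that share no arrays. Cacna1h, Kcna5, Kcna6, Kcnip3 and Kcnk2 were higher in knockdown cells at both stages, and Kcnj12 was lower at both, having been tested only through the control arrays, so that it could be called in no other direction. Of these genes only Cacna1h and Kcnk2 were called at both stages under every normalization tried. Kcna6 and Kcnip3 kept only the neuronal-stage call, and Kcna5 and Kcnj12 kept neither. Scn3b, Kcnc4 and Kcnip1 were among those higher at SNM and lower at the neuronal stage, and Kcne4, Kcnj3 and Kcnj4 were lower at SNM and higher at the neuronal stage. For these 6 genes of opposite direction the difference between the stages was also called. Of the genes called at neither stage, 15 were tested at SNM, with log2 differences from -0.58 (Kcnk5) to 0.54 (Kcnma1), and 22 at the neuronal stage, from -0.57 (Scn2a1) to 0.53 (Kcnj10).

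**Figure D3:**
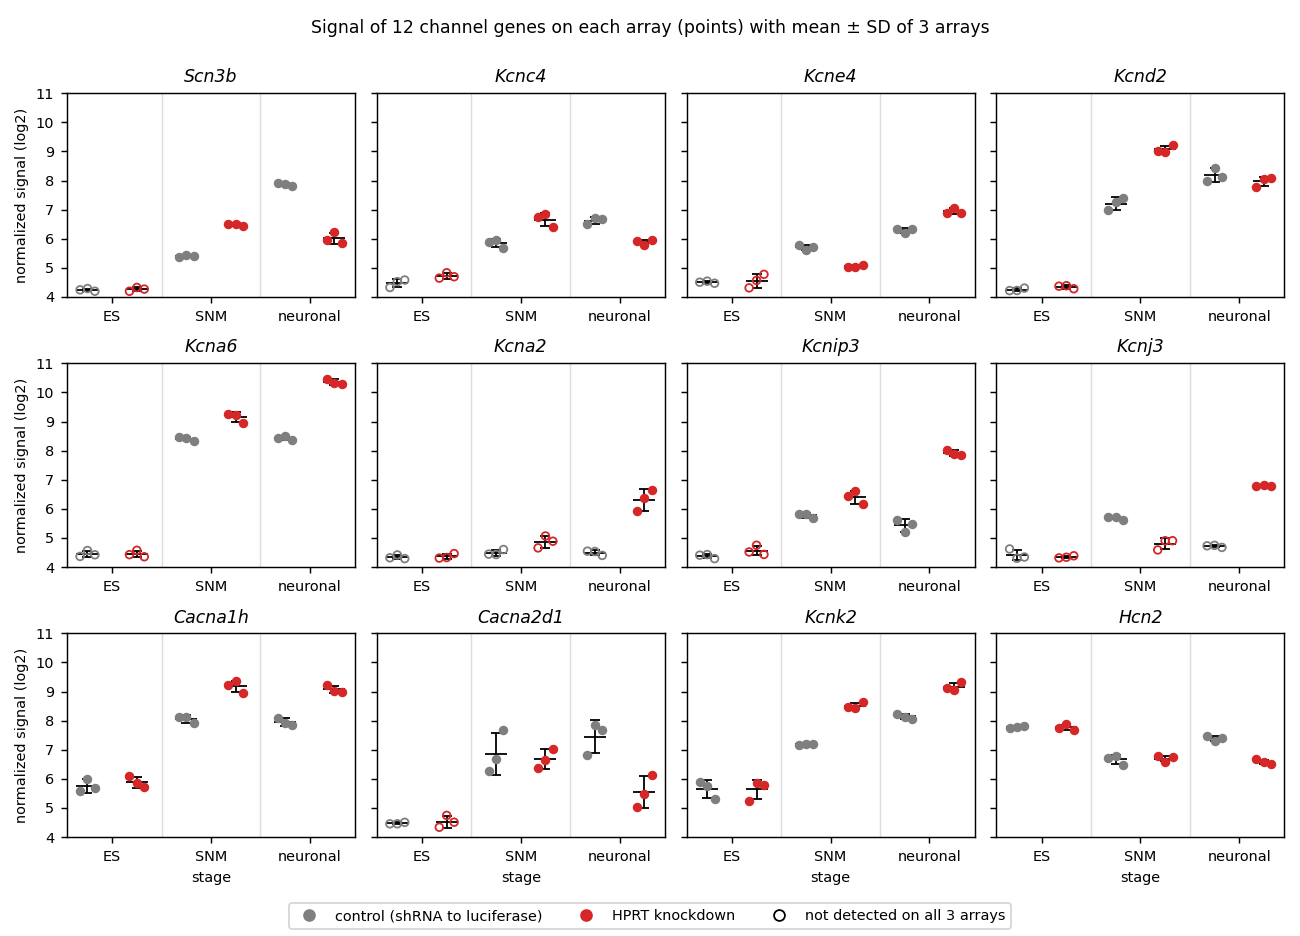
Log2 level of 12 channel genes on every array, with conditions along the horizontal axis, one point per array and a bar at the mean ± SD of the 3 arrays. Open points mark conditions in which the probe was not detected on all 3 arrays. The control and knockdown points of Scn3b change places between SNM (5.37 to 5.43 against 6.44 to 6.52) and the neuronal stage (7.82 to 7.92 against 5.84 to 6.22).

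Among the sodium channels, the accessory subunit Scn3b moved most. Scn3b is a beta subunit that alters gating and surface expression of the pores, and it was detected on no ES array. At SNM its levels were 5.37, 5.43 and 5.40 in control and 6.52, 6.52 and 6.44 in knockdown cells. On the neuronal-stage arrays they were 7.92, 7.90 and 7.82 in control and 5.97, 6.22 and 5.84 in knockdown cells. Control and knockdown arrays were separate at both stages and in opposite order. The log2 difference was 1.09 ± 0.08 (SE, adjusted p = 9.02e-09) at SNM and -1.87 ± 0.08 (adjusted p = 4.32e-12) at the neuronal stage, 2.13-fold higher and 3.65-fold lower, and the difference between the stages was -2.96 ± 0.11 (adjusted p = 1.83e-12). The other probes of Scn3b gave -1.49, -0.45 and -0.48 at the neuronal stage, of which only the first was called, and with the mean of all its probes the SNM value was 0.41 and no longer called.

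Both detected sodium channel pores changed less. Scn2a1, now named Scn2a, the main pore of immature axons, was at 5.58, 5.58 and 5.68 in control and at 5.01, 4.85 and 5.25 in knockdown cells at the neuronal stage. Those arrays did not overlap, and the log2 difference of -0.57 ± 0.09 (adjusted p = 2.92e-05) was 1.49-fold and just short of the fold threshold, whereas another of its probes gave -0.69 and was called. The first probe also passed without control array 1 (-0.59), control array 2 (-0.59) or knockdown array 3 (-0.68). Scn3a, the embryonic neuronal pore, was at 6.38, 7.29 and 7.14 in control and 6.41, 6.81 and 7.22 in knockdown cells at that stage, a difference of -0.12 (adjusted p = 0.764) that was smaller than the spread of the arrays. Scn2b, a beta subunit found in myelinated axons, was at 5.60, 5.62 and 5.49 in control and 6.08, 6.10 and 5.87 in knockdown SNM, a difference of 0.44 that was under the fold threshold, and differed by 0.08 at the neuronal stage. No sodium channel pore was called at either stage. The difference between the stages was called for Scn2a1 (-0.87), though not under every normalization tried, and was not called for Scn3a (-0.57).

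The T-type calcium channel pores Cacna1h and Cacna1g, which open at low voltage and carry rebound and pacemaker currents, were detected together with Cacna1a, the P/Q-type pore, and did not move alike. Cacna1a was near the detection limit, at 4.52 to 5.07 over the 18 arrays, and was called at neither stage (-0.10 and 0.19). Cacna1h was at 8.14, 8.12 and 7.91 in control and 9.23, 9.35 and 8.96 in knockdown SNM. At the neuronal stage it was at 8.11, 7.94 and 7.85 in control and 9.22, 9.01 and 9.0 in knockdown cells. Every knockdown array was thus above every control array at both stages, by 1.13 ± 0.13 (adjusted p = 2.38e-06) and 1.12 ± 0.13 (adjusted p = 1.63e-06) on the log2 scale, and the difference between the stages was -0.01 ± 0.18 (adjusted p = 0.968). Cacna1g was at 6.94, 6.61 and 6.66 in control and 5.97, 5.79 and 5.58 in knockdown cells at the neuronal stage, 1.94-fold lower (log2 difference -0.96 ± 0.12, adjusted p = 5.58e-06), whereas at SNM it differed by 0.49 and was not called.

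Of the accessory subunits of the high-voltage-activated calcium channels, both detected alpha2delta subunits, which help carry the pores to the membrane, were lower in knockdown cells at the neuronal stage, and neither was called at SNM. Cacna2d1, the target of gabapentin, was at 6.82, 7.86 and 7.67 in control and at 5.04, 5.48 and 6.12 in knockdown cells, 3.73-fold lower with a log2 difference of -1.90 ± 0.34 (adjusted p = 0.000143). Its arrays spread more than those of the other members, and array 1 was the lowest of the 3 in each of the 4 SNM and neuronal conditions. At SNM its arrays overlapped, with 6.26, 6.69 and 7.67 in control and 6.36, 6.65 and 7.04 in knockdown cells. Cacna2d3 was at 7.11, 6.84 and 7.03 against 6.08, 5.88 and 6.11 at the neuronal stage, 1.96-fold lower (-0.97 ± 0.14, adjusted p = 2.15e-05).

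Among the beta subunits, which bind the pore from the cytoplasm, Cacnb1 alone was called. Cacnb1, the form of skeletal muscle that is also present in brain, was at 6.31, 6.31 and 6.32 in control and 5.31, 5.22 and 5.14 in knockdown cells at the neuronal stage, 2.13-fold lower (-1.09 ± 0.16, adjusted p = 2.22e-05). Cacnb3, a neuronal form, differed by -0.01 at SNM and by -0.05 at the neuronal stage, where its arrays were 8.14, 8.01 and 7.96 in control and 8.11, 7.98 and 7.87 in knockdown cells. The gamma subunits, of which several are better known as partners of AMPA receptors, moved in both directions at the neuronal stage. Cacng5 was at 5.37, 5.28 and 4.98 in control and 6.36, 6.28 and 6.21 in knockdown cells, 2.10-fold higher (1.07 ± 0.11, adjusted p = 4.56e-07), after a difference of -0.48 at SNM that was not called. Cacng7 was detected on 2 of 3 control arrays (4.66, 4.99 and 4.88) and on all knockdown arrays (5.28, 5.63 and 5.86), a log2 difference of 0.75. Cacng3 was at 5.02, 5.08 and 5.06 in control cells and was detected on no knockdown array, so that it was at least 1.24-fold lower and, tested only through the control arrays, could be called only as lower. Cacng4 was called only at SNM, where it was at 5.51, 5.45 and 5.70 in control and 6.18, 6.48 and 6.57 in knockdown cells (0.86 ± 0.23, adjusted p = 0.00472).

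The voltage-gated potassium channels made up the largest class. At SNM 7 of 10 tested were higher in the knockdown cells and none lower, with a median log2 difference of 0.84, and at the neuronal stage 3 of 13 were higher and 4 lower with a median of -0.22. Over all probes tested 11% were higher and 8.9% lower at SNM, and 13.9% and 13.5% at the neuronal stage. Kcnd2, the A-type pore that delays firing between spikes, was at 6.97, 7.26 and 7.40 in control and 9.02, 8.99 and 9.21 in knockdown SNM. After neuronal differentiation it was at 7.99, 8.45 and 8.13 in control and 7.79, 8.05 and 8.08 in knockdown cells. The arrays were separate at SNM, by 1.86 ± 0.12 (adjusted p = 3.22e-09) or 3.64-fold, and overlapped at the neuronal stage, where the difference was -0.22 ± 0.12 (adjusted p = 0.133). The change between the stages was -2.08 ± 0.17 (adjusted p = 4e-08). A fainter probe of Kcnd2 gave 0.58 at SNM and was not called.

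The related channels Kcnc4 and Kcnc1 were both higher in knockdown SNM, and Kcnc4 was then lower at the neuronal stage. Kcnc4, a fast-inactivating pore, was at 5.91, 5.95 and 5.69 against 6.75, 6.84 and 6.39 at SNM and at 6.50, 6.71 and 6.66 against 5.93, 5.79 and 5.95 at the neuronal stage, 1.76-fold higher and then 1.67-fold lower. Its relative Kcnc1 was at 6.99, 6.98 and 6.88 against 8.0, 7.96 and 7.67 at SNM (0.93 ± 0.11, adjusted p = 3.88e-06) and differed by -0.34 at the neuronal stage, which was not called.

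The Shaker-type channels, the axonal and juxtaparanodal potassium channels of the nervous system, were higher in the knockdown cells where they were called. At the neuronal stage Kcna2 and Kcna5 were tested only through the knockdown arrays, so the detection filter favoured that direction. Kcna6, given above for SNM, was at 8.42, 8.51 and 8.36 in control and 10.47, 10.33 and 10.28 in knockdown cells at the neuronal stage. It was 1.65-fold higher at SNM (0.73 ± 0.09, adjusted p = 4.32e-06) and 3.81-fold higher at the neuronal stage (1.93 ± 0.09, adjusted p = 1.74e-11), with no overlap of arrays at either, and its other tested probes gave 1.93 and 0.66 at the neuronal stage, both called. With the mean over its detected probes the SNM difference was 0.54 and not called. Kcna2, a main axonal pore, was detected on all arrays of one condition only, the knockdown neuronal stage, with 5.91, 6.38 and 6.64. Control cells of that stage were at 4.55, 4.53 and 4.40 with no detection, so Kcna2 was at least 3.03-fold higher (adjusted p = 1.19e-08), and having been tested only through the condition in which it was high, it could not have come out otherwise. In knockdown SNM 2 of 3 arrays detected it. Kcna5, a delayed rectifier of heart, muscle and glia, was at 4.66, 4.91 and 4.61 in control, where 1 array detected it, and 5.67, 5.61 and 5.75 in knockdown cells at the neuronal stage (0.95 ± 0.09, adjusted p = 2.12e-07), and differed by 0.87 at SNM, also called. Kcna1, the partner of Kcna2 in many axons, was detected on all 3 arrays only in knockdown neuronal-stage cells (4.76, 5.13 and 4.99) and its difference of 0.47 was not called, except without control array 2 (0.59). Kcnf1, a silent subunit that modifies other pores, was at 5.48, 5.68 and 5.86 in control and 4.82, 4.76 and 4.66 in knockdown cells at the neuronal stage, where 2 of 3 arrays detected it, 1.90-fold lower. Kcnh2, the channel of the cardiac rapid delayed rectifier, differed by 0.04 and -0.26 and was called at neither stage.

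Accessory subunits of the potassium channels included the largest neuronal-stage difference of any channel gene tested. At SNM 5 of 7 tested were higher and 1 lower in knockdown cells, with a median of 0.66, and at the neuronal stage 3 of 7 were higher and 1 lower, with a median of 0.33. All 7 were detected on every knockdown SNM array but only 5 on every control SNM array. Kcnip1 and Kcnab1 entered the SNM test through the knockdown arrays alone, which favoured a call as higher. Kcnip3, a calcium-binding protein that assembles with Kcnd pores and also acts in the nucleus as a transcriptional repressor, was at 5.61, 5.20 and 5.47 in control and 8.03, 7.87 and 7.85 in knockdown cells at the neuronal stage. That is 5.62-fold higher (2.49 ± 0.12, adjusted p = 2.49e-11) with arrays far apart. At SNM Kcnip3 was at 5.83, 5.82 and 5.68 against 6.42, 6.60 and 6.16, a smaller difference of 0.62 ± 0.12 (adjusted p = 0.000343) that fell under the fold threshold without knockdown array 2 (0.52) or control array 3 (0.57). Kcnip1, of the same family, was at 4.61, 4.93 and 4.60 in control and 5.40, 5.22 and 5.47 in knockdown SNM, and at 5.81, 5.81 and 5.78 against 5.56, 4.93 and 5.14 at the neuronal stage. The differences were 0.66 and -0.59, and the neuronal call, at 1.5-fold, was lost with the mean over probes (-0.49) and without control array 1 (-0.58), knockdown array 2 (-0.45) or knockdown array 3 (-0.56). In control SNM 1 of 3 arrays detected Kcnip1.

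Kcne1l, an X-linked single-span subunit that slows other channels, was called only at SNM, with 6.74, 6.64 and 6.56 in control and 7.90, 8.08 and 8.13 in knockdown cells (1.39 ± 0.10, adjusted p = 1.3e-08, 2.62-fold). At the neuronal stage its difference was 0.13. Kcnmb4 behaved likewise, with 7.18, 7.12 and 7.01 against 8.10, 8.12 and 8.06 at SNM (0.99 ± 0.09, adjusted p = 1.94e-07) and a difference of -0.38 at the neuronal stage that was not called. Kcne4, an inhibitory subunit, moved the other way and was at 5.79, 5.60 and 5.70 in control and 5.01, 5.03 and 5.11 in knockdown SNM, then at 6.34, 6.19 and 6.33 and at 6.88, 7.06 and 6.90 at the neuronal stage. Its log2 differences were -0.65 ± 0.09 and 0.66 ± 0.09, and the difference between the stages was 1.31 ± 0.13 (adjusted p = 5.28e-07). The cytoplasmic beta subunits of Shaker-type channels were each called once, Kcnab1 at SNM (0.92, with 1 of 3 control arrays detecting it) and Kcnab2 at the neuronal stage, where 6.72, 6.98 and 6.73 in control stood against 7.38, 7.35 and 7.60 in knockdown cells (0.63).

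Of the calcium- and sodium-activated potassium channels, which follow the action potential with a hyperpolarization, only Kcnn2 was called between knockdown and control. It was at 5.21, 5.41 and 5.31 in control and 6.16, 6.0 and 5.98 in knockdown SNM, 1.66-fold higher (0.73 ± 0.13, adjusted p = 0.000167), and differed by 0.11 at the neuronal stage. Kcnma1, the large-conductance pore, was detected on all 3 knockdown (4.88, 5.23 and 5.01) and no control SNM arrays, and on all 3 control (4.92, 5.04 and 5.18) and no knockdown arrays at the neuronal stage. Its differences of 0.54 and -0.43 were not called, but the difference between them, -0.97, was, and the SNM difference passed without control array 1 (0.69) or knockdown array 1 (0.62). Kcnn1 differed by -0.04 and 0.18 and was called at neither stage.

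The inward rectifiers, which hold the membrane near the potassium equilibrium potential, included a reversal opposite in order to that of Scn3b. At SNM 1 of 4 tested was higher and 3 were lower in knockdown cells, and at the neuronal stage 2 of 7 were higher and 1 lower. Kcnj3, the pore subunit that G protein-coupled receptors open, was detected on no ES array. It was at 5.70, 5.72 and 5.63 in control and 4.59, 4.90 and 4.90 in knockdown SNM, where 2 of 3 arrays detected it. After neuronal differentiation it was at 4.73, 4.75 and 4.67 in control, with 1 array detecting it, and 6.79, 6.83 and 6.79 in knockdown cells. Kcnj3 thus fell between the stages in control cells and rose in knockdown cells. It was 1.85-fold lower in knockdown cells at SNM (-0.89 ± 0.09, adjusted p = 4.07e-07) and 4.25-fold higher at the neuronal stage (2.09 ± 0.09, adjusted p = 5.05e-12), with a difference between the stages of 2.97 ± 0.12 (adjusted p = 8.76e-12). At each stage Kcnj3 was tested only through the brighter condition, so the detection filter favoured the direction found. A second Kcnj3 probe gave -0.43, not called, 0.69 and 1.12, both called.

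Kcnj4, a strong rectifier of brain and heart, showed the same order at smaller size, with 6.38, 6.19 and 6.10 against 5.49, 5.51 and 5.65 at SNM and 5.66, 5.38 and 5.70 against 6.23, 6.37 and 6.36 at the neuronal stage. Its differences were -0.68 ± 0.12 (adjusted p = 0.000168) and 0.74 ± 0.12 (adjusted p = 5.14e-05). Kcnj12, a strong rectifier of heart and muscle, was detected on no knockdown array at either stage, and was at least 1.4-fold lower than control SNM (4.84, 5.02 and 5.64) and at least 1.19-fold lower than control neuronal-stage cells (4.89, 5.09 and 5.00). Its call at SNM was lost without control array 3 (-0.50), and its neuronal call without knockdown array 1 (-0.58) or control array 2 (-0.56). Kcnj16, a glial and renal subunit, was detected on no control SNM array and was at 5.72, 5.53 and 5.56 in knockdown SNM, at least 1.79-fold higher, and differed by 0.16 at the neuronal stage. Its SNM test rested on the knockdown arrays alone and could call it only as higher. Kcnj10, the astrocyte and oligodendrocyte rectifier with which Kcnj16 assembles, was at 4.73, 4.64 and 4.91 in control and 5.32, 5.27 and 5.27 in knockdown cells at the neuronal stage, and its difference of 0.53 was under the fold threshold, which it passed without control array 3 (0.60). In those control cells 1 of 3 arrays detected it.

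Among the 2-pore-domain channels, which carry background potassium current, Kcnk2 was higher in knockdown cells at both stages and Kcnk6 was lower at one. Kcnk2, a channel opened by stretch and lipids, was at 7.16, 7.20 and 7.21 in control and 8.48, 8.42 and 8.63 in knockdown SNM. On the neuronal-stage arrays it was at 8.23, 8.14 and 8.07 against 9.13, 9.07 and 9.32. The arrays were separate in the same order at both stages, by 1.32 ± 0.15 (adjusted p = 1.89e-06) and 1.02 ± 0.15 (adjusted p = 1.91e-05), and the difference between the stages was -0.30 ± 0.21 (adjusted p = 0.268). Kcnk6, a channel of lysosomes and blood vessels, was at 6.74, 6.72 and 6.54 in control and 7.04, 6.83 and 6.66 in knockdown SNM, which overlapped. On the neuronal-stage arrays it was at 7.98, 8.06 and 8.01 in control cells, between their SNM and ES levels, and at 6.34, 6.55 and 6.23 in knockdown cells. It was 3.13-fold lower there (-1.65 ± 0.10, adjusted p = 8.26e-10), and its only other tested probe gave -1.26, also called. Kcnk13 was called at SNM (0.90), where 1 of 3 control arrays detected it. Kcnk5 differed by -0.58 at SNM and -0.50 at the neuronal stage, and Kcnk1 by -0.21 and 0.46, all under the fold threshold. For Kcnk5 at SNM that threshold was passed without knockdown array 1 (-0.59), knockdown array 2 (-0.61) or control array 3 (-0.69).

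Both detected HCN channels, which open on hyperpolarization and drive pacemaking, differed at the neuronal stage only by the threshold used. Hcn2 was at 7.74, 7.79 and 7.81 in control and 7.76, 7.87 and 7.69 in knockdown ES cells, and at 6.73, 6.79 and 6.49 against 6.78, 6.59 and 6.74 in SNM. At the neuronal stage it was at 7.48, 7.31 and 7.40 in control and 6.67, 6.58 and 6.51 in knockdown cells. Its arrays overlapped at the first 2 stages and were separate at the last, 1.75-fold lower in knockdown cells (-0.81 ± 0.08, adjusted p = 2.98e-07), after a difference of 0.03 ± 0.08 (adjusted p = 0.786) at SNM. Hcn3 was at 6.52, 6.32 and 6.32 in control and 5.39, 5.46 and 5.51 in knockdown cells at the neuronal stage, 1.91-fold lower (-0.93 ± 0.12, adjusted p = 6.09e-06), and differed by 0.24 at SNM. For Hcn2 the neuronal-stage control arrays lay between those of control ES cells and control SNM, and the neuronal-stage knockdown arrays overlapped those of knockdown SNM.

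The cultures of the compared conditions also differed in markers of other cell types, whose levels are given here because channel genes are expressed in those cells. A list of 13 skeletal muscle genes had a mean log2 level of 11.50 to 11.52 on the control and 4.99 to 5.27 on the knockdown neuronal-stage arrays, with 12 of 13 called lower in knockdown cells and a median log2 difference of -7.04. In SNM it was 6.30 to 6.47 in control and 7.24 to 7.33 in knockdown cells, with 10 of 12 tested called higher. A list of 12 oligodendrocyte genes moved in the opposite order, from 8.68 to 8.73 in control and 7.51 to 7.57 in knockdown SNM to 6.47 to 6.52 in control and 11.31 to 11.34 in knockdown cells at the neuronal stage, where all 12 were called higher with a median of 5.74. As single genes, Acta1, the skeletal muscle actin, averaged 14.39 and 6.36, and Mbp, the myelin basic protein, 8.41 and 14.34 in control and knockdown neuronal-stage cells. The other lists differed less. Of the neuronal list, 7 of 10 tested genes were lower at the neuronal stage and none higher (range 8.41 to 8.54 in control and 7.13 to 7.26 in knockdown cells), and Stmn2 averaged 12.01 and 8.94. At SNM 1 was higher and 3 lower. Astrocyte genes were higher in knockdown cells, 4 of 8 at SNM and 5 of 8 at the neuronal stage with 1 lower. Fibroblast genes were higher in 3 of 8 at SNM and lower in 6 of 8 at the neuronal stage. Pluripotency genes were lower in 4 of 5 and then 5 of 5. Of 3 heart genes tested 1 was higher at SNM and 2 were lower at the neuronal stage. The mean over the list of 6 endothelial and blood genes stood between 4.65 and 5.35 on all arrays. Of these genes 2 of 3 tested were higher at SNM, and the only one tested at the neuronal stage was lower.

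**Figure D4:**
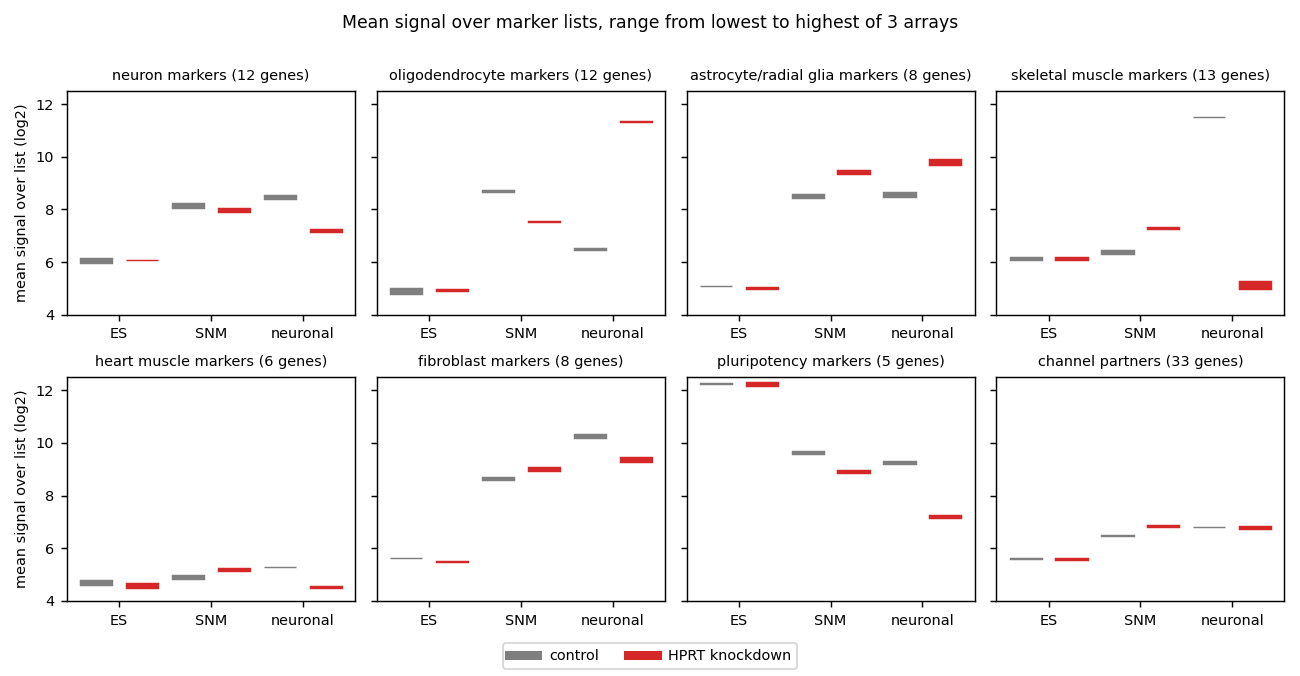
Mean log2 level over the genes of 8 lists (cell type markers and, in the last panel, the channel partners) in each condition, with bars spanning the lowest to highest of the 3 arrays. The skeletal muscle list separates control (11.50 to 11.52) from knockdown cells (4.99 to 5.27) at the neuronal stage, and the oligodendrocyte list separates them in the opposite order (6.47 to 6.52 and 11.31 to 11.34).

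Channel genes known from muscle and glia were counted on their own beside these markers. Of 9 muscle channel genes, 4 were tested at the neuronal stage and 3 (Cacnb1, Cacna2d1 and Kcnj12) were lower in knockdown cells, with a median of -0.85, and 1 of 3 tested (Kcnj12) was lower at SNM. Over all probes tested 13.5% were lower at the neuronal stage and 8.9% at SNM. Kcnj12 entered both tests through the control arrays alone, so its direction was set by the detection filter. The skeletal muscle sodium channel Scn4a, the gamma subunit Cacng6 and Kcna7 were detected on no array. Cacna1s and Cacng1 had been left out by the rule that selects the channel genes. Of 3 glial channel genes, 0 of 3 tested were called at the neuronal stage with a median of 0.46, and 1 of 2 (Kcnj16) was higher at SNM, a direction that the detection filter had set. Over all probes tested 13.9% were higher at the neuronal stage and 11% at SNM. Muscle, oligodendrocyte and neuronal markers moved with the neuronal-stage differences of the channel genes, and their part in those differences was not tested.

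Genes whose products anchor channels, assemble with them or keep up the ion gradients they use were read alongside. Of 36 such partners 33 were on the array. In SNM 10 of 25 tested were higher in knockdown cells and 1 lower, against 11% and 8.9% of all probes tested. The median log2 difference of the partners was 0.44. At the neuronal stage 8 of 24 were higher and 10 lower, against 13.9% and 13.5%, with a median of -0.04. In ES cells 0 of 12 were called, against 1.68% of all probes tested. The change from SNM to the neuronal stage differed between the lines in 17 of 25 partners. In knockdown cells 6 were more positive and 11 more negative, against 13.7% and 14.8% of all probes tested. Atp1b2, the glial beta subunit of the sodium pump, averaged 7.67 in control and 9.78 in knockdown SNM, and 7.94 and 10.87 at the neuronal stage. It was higher at both stages, by 2.11 ± 0.08 (adjusted p = 1.21e-11) and 2.93 ± 0.08 (adjusted p = 4.8e-14). Cntnap2, which clusters Shaker-type channels beside the node of Ranvier, averaged 7.19 and 8.67 at SNM and 7.81 and 5.07 at the neuronal stage, and so passed from higher to lower in the knockdown cells. The Kcnd partners Dpp6 and Dpp10 followed the same order, with differences of 1.06 and 0.90 at SNM and -1.0 and -0.77 at the neuronal stage. Slc12a5, the neuronal potassium-chloride cotransporter, was at least 2.22-fold higher at SNM and at least 1.66-fold lower at the neuronal stage, being detected on no array of the lower condition each time. Ank3, the ankyrin that holds sodium channels at the axon initial segment, was lower at both stages, from 8.30 to 7.40 and from 9.63 to 7.81, and Fgf13, a cytoplasmic partner of sodium channels, averaged 10.14 in control and 7.98 in knockdown cells at the neuronal stage. Cntn1, an axonal and oligodendrocyte adhesion molecule, averaged 8.79 and 11.52 there and Nfasc, neurofascin, 5.11 and 6.74.

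Where a called channel gene had another tested probe, that probe mostly gave the same direction. At SNM 7 of the called genes had one, and for 4 of them it was called the same way. At the neuronal stage these numbers were 8 and 6, and for the difference between the stages 13 and 9, and in none was another probe called in the opposite direction. The probes of Kcna6, Kcnj3, Cacnb1, Cacng4 and Kcnma1 used here are among 14 that the array annotation lists by symbol without a gene identifier.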

How the data were processed

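RNA of ESD3 control and HPRT-knockdown cells at 3 stages was pooled over replicate cultures and hybridised in triplicate to MouseWG-6 v2 BeadChips, a 1-colour array. The authors read the arrays with the BeadArray software and deposited, per probe and array, the average bead intensity without background subtraction or normalization, together with a detection p-value. The deposited table was matched to arrays by column name, and 72 columns that name no sample were not used.

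Intensities were background-corrected with the detection p-values, offset by 16, quantile-normalized and taken to log2 by neqc (limma 3.58.1, R 4.3.3). One linear model of the 6 conditions was fitted over all 45281 probes with empirical Bayes moderation. Testing was limited to probes with a detection p under 0.05 on every array of 1 or more of the conditions in question, p-values were adjusted by Benjamini-Hochberg over all probes tested, and a probe was called at an adjusted p under 0.05 and at least 1.5-fold. The offset shrinks differences of faint probes. With 3 arrays against 3 an exact permutation test cannot give a p under 0.1, so no single-gene exact test was used. The number of arrays and their shared RNA pools limit the precision. The median SD among the 3 arrays over detected channel genes was 0.119. All 18 arrays matched their own detection column best, and 0 pairs of arrays were identical.

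The channel genes and the lists (12 groups of channel classes, 8 of cell type markers, muscle channels, glial channels and channel partners) were chosen with earlier results of these data known. Named were the 8 largest rises and falls among called members of each knockdown comparison, the 4 largest of each stage change, and well-studied channels whatever their values. Some of these genes enter the counts, but their own values are not reported here. Other called genes of a class were named after their values were seen, as were Dpp6, Dpp10, Slc12a5, Ank3, Fgf13 and Nfasc. RefSeq (GRCm38.p6) matched 117 members by gene identifier and the others by symbol, and gave the promoter windows. Deviations of control and knockdown arrays of the same number (1, 2 and 3) correlated at 0.486, 0.108 and 0.489 at SNM. At the neuronal stage these correlations were 0.605, 0.0938 and 0.325, and in ES cells -0.0938, 0.0254 and 0.0959. Control array 2 correlated better with an array of another number, knockdown array 1 at SNM (0.191) and knockdown array 3 at the neuronal stage (0.402). What an array number marks is not given in the sources used here. Alternatives were other normalizations, filters, thresholds, probes per gene and tests, arrays left out in turn, and the array number as a block. The procedure was tested on simulated data.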

Additional observations from a re-analysis of the deposited data

Results flagged for a closer look

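The effect of the knockdown differed between stages by the interaction term of the limma model in 35 channel genes for the neuronal against the SNM stage, and in 24 for the SNM against the ES stage. Some genes were called in opposite directions at SNM and at the neuronal stage. From higher to lower in knockdown cells went Scn3b, with a difference between the stages of -2.96 on the log2 scale, Kcnc4 with -1.55 and Kcnip1 with -1.24. From lower to higher went Kcnj3 with 2.97, Kcnj4 with 1.42 and Kcne4 with 1.31. The difference between the stages was called under every normalization tried for these genes except Kcnip1. Of the 6 genes only Scn3b also kept its calls at both single stages under every normalization, and its SNM call was lost with the mean over its probes (0.41). Kcnj3 kept its neuronal-stage call, and Kcnc4, Kcnip1, Kcnj4 and Kcne4 kept neither.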

How the results depend on the processing

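Counts are given as channel genes higher and lower. Quantile normalization without background correction gave 8 and 0 for knockdown against control at SNM, 6 and 6 at the neuronal stage, 9 and 1 for the SNM to neuronal change in control and 6 and 5 in knockdown cells, and 8 and 0 for the difference between the lines in the ES to SNM change. Scaling to the 75th percentile, again on uncorrected signals, gave 7 and 0, 7 and 9, 9 and 1, 5 and 5, and 11 and 1 for the same comparisons, and 10 (control) and 19 (knockdown) genes higher in the ES to SNM change. Uncorrected signals keep the background, which by construction compresses the differences of faint probes. A minimum of 2-fold gave 6 and 0, 7 and 6, 7 and 0, 5 and 4, and 7 and 0. With no minimum change 1 gene was lower in ES cells, 9 were lower at SNM, 30 rose and 7 fell between SNM and the neuronal stage in the control line, and 21 rose in the knockdown line. No single-gene call was reversed. The median over the channel genes tested changed sign for the SNM to neuronal change in knockdown cells (0.08 as reported, -0.01 without scaling) and for the knockdown in ES cells (0.03 as reported, -0.01 at the 75th percentile). At 2-fold, higher calls outnumbered lower calls at the neuronal stage and in the knockdown cells' change to it, opposite to the order at 1.5-fold, as they did for that change under quantile normalization without background correction.

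Leaving out each array in turn gave 0 to 0 higher and 0 to 1 lower in ES cells, the 1 (Kcnk1) without control array 2. It gave 18 to 20 and 4 to 5 at SNM, 11 to 13 and 14 to 16 at the neuronal stage, 23 to 25 and 4 to 5 (control) and 29 to 32 and 5 to 6 (knockdown) from ES cells to SNM, and 16 to 20 and 3 to 4 (control) and 9 to 12 and 11 to 14 (knockdown) from SNM to the neuronal stage. The difference between the lines ranged over 16 to 20 and 4 to 6 for the first change and 10 to 11 and 23 to 26 for the second.

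With the array number as a replicate block, the counts were 19 and 4 at SNM and 12 and 15 at the neuronal stage, Hprt1 differed by -4.09, -1.76 and -4.45, and no call changed. The methods' t-test gave 19 and 4 at SNM and 12 and 15 at the neuronal stage, and 19 and 3 and 12 and 14 after Benjamini-Hochberg adjustment. The median change of all probes from ES cells to SNM was 0.19 (control) and 0.12 (knockdown) without scaling, against -0.08 and -0.11 as reported. The fold changes of faint probes depend most on the background step, and for probes near the detection limit only a bound is known.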
